A study of Rhodotorula toruloides with 36 samples.

Results

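The genes described here are 109 of the 8490 annotated genes of Rhodotorula toruloides IFO0880, a strain of a red basidiomycete yeast, whose messenger RNA differed little between low and high nitrogen at 48 h and was at least 2-fold higher in low nitrogen at 88 h. They are called the late-rising genes. They were chosen by their CPM, the counts of a gene scaled to a common library size with edgeR's TMM factors. The mean CPM of the 3 libraries of a group, plus 1, had to give a low-to-high nitrogen ratio between 0.67 and 1.5 at 48 h, both with and without acetate, and of at least 2 at 88 h, both with and without acetate. Of the 8490 genes 4206 met the limits at 48 h.

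All cultures were of 1 strain. Low nitrogen with acetate had 0.1 g/L ammonium sulfate and 2 g/L acetate, and low nitrogen without acetate had 0.1 g/L ammonium sulfate. High nitrogen with and without acetate are given with 5 g/L ammonium sulfate by the treatment protocol but with 10 g/L by the design text, a conflict that is not resolved here. Yeast extract at 0.75 g/L is part of low nitrogen in the design text, which gives no such level for high nitrogen, so a nitrogen effect may include one of yeast extract. Each of the 4 media was sampled at 48, 64 and 88 h with 3 biological replicates, which gives 36 libraries. The series title names xylose, but no label states on what carbon the sampled cultures grew. The inoculum came from 3 colonies, pre-grown on glucose, each of which seeded 4 flasks. The 3 times may therefore be samples of the same flasks, and the p-values below treat the libraries as independent.

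When nitrogen runs short, yeasts of this kind slow their growth while carbon goes on being taken up, and the carbon is stored as lipid in droplets. Fungi then also relieve nitrogen catabolite repression, a control that keeps genes for the use of poorer nitrogen sources silent while ammonium is plentiful, and raise autophagy, which recycles cell contents. Such responses unfold over time as the medium is used up. The late-rising genes are a set defined by that timing alone. The catalogue gives no names or functions, and the table of names used here covers strain NP11 and shares no identifier with it, so genes are given by catalogue number, protein number and place in the IFO0880 assembly, version 4.

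Total counts per library lay between 10173719 and 63311529. All 109 late-rising genes passed the filter on low counts, as 8314 of the 8490 genes did, and all 109 also passed it in the 18 high-nitrogen libraries alone. The gene with the fewest reads had 823 counts over the 36 libraries. In 4 groups 1 library stood apart, with a chi-square, divided by its degrees of freedom, that was well above that of the other pair of replicates against both of them. These were replicate 2 of high nitrogen without acetate at 64 h (104 and 119, against 19.4) and at 88 h (156 and 88.3, against 14.6), replicate 3 of high nitrogen with acetate at 48 h (126 and 110, against 22.9), and replicate 1 of low nitrogen without acetate at 64 h (40.9 and 43.5, against 11.2). All were kept, and values without them are given where they bear on a result. Without all 4 the rule found 147 genes, 104 of them among the 109.

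The values that chose the genes are given as a description. The median low-to-high ratio at 48 h was 1.18 with acetate and 1.17 without it. At 88 h it was 2.98 with acetate, with a range of 2.01 to 6.95, and 2.52 without acetate, with a range of 2.01 to 6.41. Over all 8314 tested genes the medians at 88 h were 1.00 in both. The gene just inside the limit at 88 h was mRNA_6836, with a smaller ratio of 2.01, and the gene just outside was mRNA_1993, with 1.998. At the upper limit at 48 h mRNA_5511 was inside with 1.49 and mRNA_7796 outside with 1.51. At the lower limit mRNA_7414 was inside with 0.685 and mRNA_8048 outside with 0.669. Many genes lay near the limits. The smaller 88 h ratio of 37 of the 109 was under 2.2, and 67 genes that met the 48 h limits had one between 1.8 and 2. The set also rests on the scaling of the libraries. With library totals in place of TMM factors the rule found 26 genes, 21 of them among the 109, and with RLE size factors it found 109, of which 106 were shared.

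**Figure D1:**
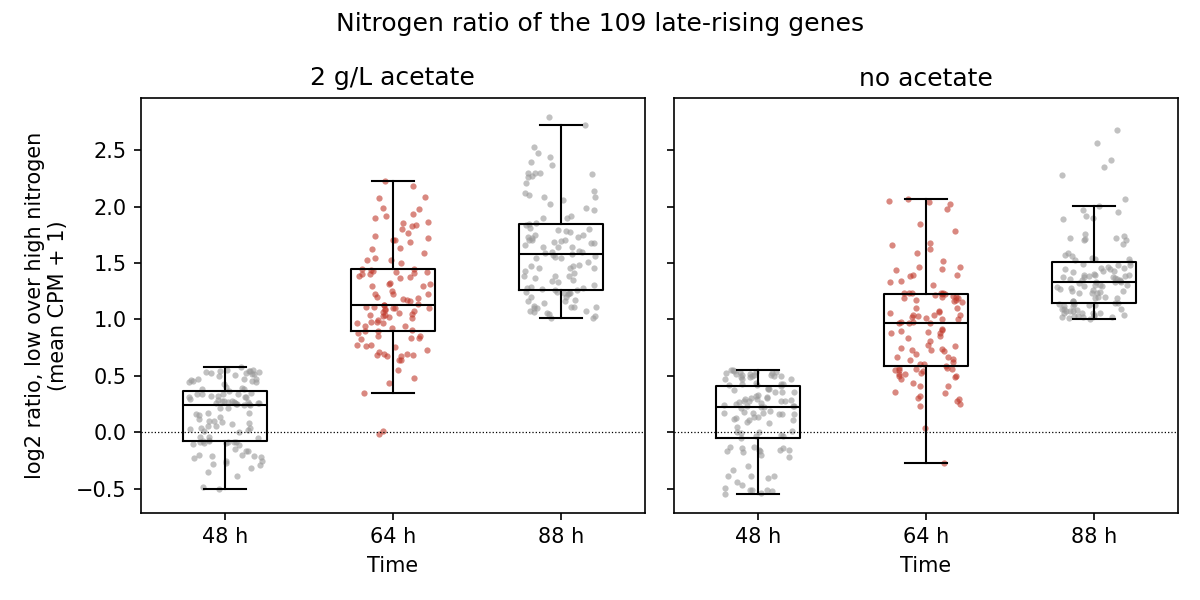
Low-to-high nitrogen ratio of the 109 late-rising genes at each time, as log2 of the ratio of group means of CPM plus 1, with acetate (left) and without it (right). Points are genes, boxes span the quartiles with the median as a line, whiskers reach at most 1.5 times the box height, and grey marks the times that chose the genes; at 64 h, in red, the medians were 1.13 with acetate and 0.97 without.

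A late ratio can come from a higher level in low nitrogen or from a lower one in high nitrogen. On the TMM scale most of these genes were higher late in low nitrogen. In high nitrogen the median level changed little over time with acetate, while without acetate it was lowest at 64 h and highest at 88 h. In low nitrogen with acetate the median late-rising gene stood at 6.09 CPM at 48 h, 15.5 CPM at 64 h and 20.3 CPM at 88 h. In high nitrogen with acetate the medians were 5.61, 5.13 and 5.92 CPM. In low nitrogen without acetate the median was 10.8 CPM at 48 h, 14.8 CPM at 64 h and 29.6 CPM at 88 h, and in high nitrogen without acetate it was 8.88, 8.31 and 12.0 CPM.

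From 48 to 88 h, 105 of the 109 genes were at least 1.5-fold higher in low nitrogen with acetate and none was 1.5-fold lower, in the group means of CPM plus 1. In high nitrogen with acetate 9 were higher and 15 lower by that limit, against 19.0% and 18.2% of all tested genes. In low nitrogen without acetate 89 were higher and 1 lower. In high nitrogen without acetate 19 were higher and 19 lower, against 19.5% and 13.8% of all tested genes, so the share that was higher there was near that of all genes. Over all tested genes 26.0% were higher by that much in low nitrogen with acetate and 23.4% without it. Changes of that size in both media, up in low and down in high nitrogen, were seen in 11 genes with acetate, against 2.99% of all tested genes, and in 4 without it, against 1.31%. For 4 genes with acetate and 15 without it, only the drop in high nitrogen reached 1.5-fold, so the name of late rise does not describe those genes. The same held for 15.2% and 12.5% of all tested genes. These libraries chose the genes, so no test is given for these changes. With library totals alone 91 genes were at least 1.5-fold higher in low nitrogen with acetate, against 16.1% of all tested genes, and 79 without it, against 15.6%.

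The steps differed between the media. With acetate in low nitrogen 81 of the 109 genes were at least 1.5-fold higher at 64 than at 48 h, against 24.3% of all tested genes, and 39 were higher at 88 than at 64 h, against 10.1%. Without acetate in low nitrogen 47 were higher at 64 than at 48 h, against 16.7%, and 63 at 88 than at 64 h, against 12.8%. The group mean was higher at each later time for 92 genes in low nitrogen with acetate, against 24.8% of all tested genes, and for 85 without it, against 26.9%. In each high-nitrogen medium it was so for 26 genes, against 24.2% of all tested genes with acetate and 19.8% without it. In high nitrogen without acetate the level dipped between, with 34 genes at least 1.5-fold lower at 64 than at 48 h, against 16.8% of all tested genes, and 32 at least 1.5-fold higher at 88 than at 64 h, against 14.3%.

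**Figure D2:**
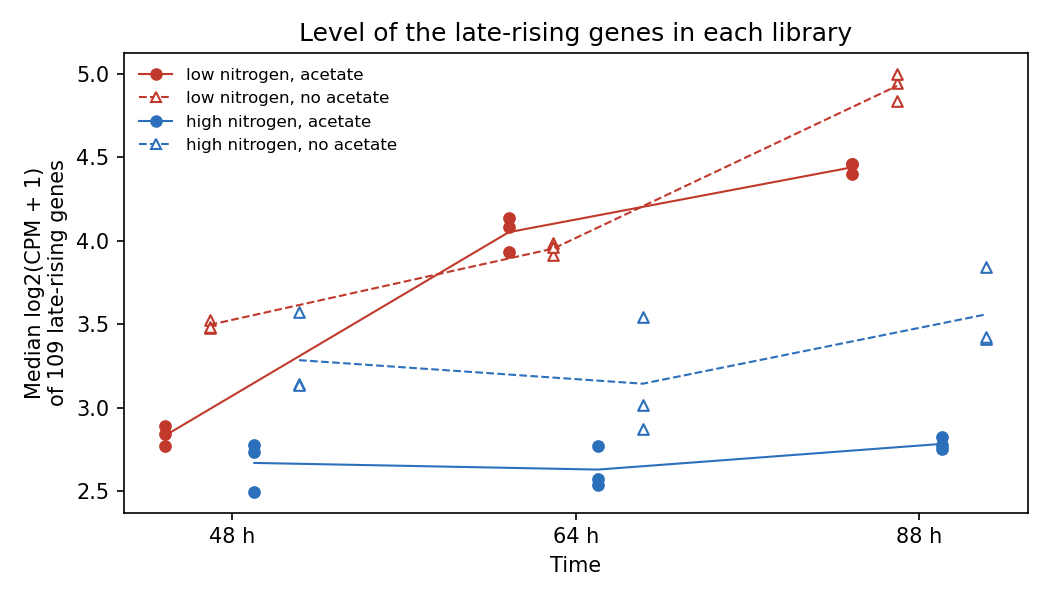
Median of log2(CPM + 1) over the 109 late-rising genes in each library (points) at 48, 64 and 88 h, with lines through the group means. At 64 h, a time that did not choose the genes, every low-nitrogen library lies above every high-nitrogen library. The same is seen at 88 h, where the rule set the ratio of each gene. In high nitrogen without acetate replicate 2 is the highest point at 64 h (3.54) and at 88 h (3.84).

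A share of raw counts needs no scaling between libraries, but abundant genes weigh most in it. In low nitrogen with acetate at 64 h the highest group mean among the 109 genes was 2079 CPM, against a median of 15.5 CPM. The 109 genes took 0.611% ± 0.0113 of the counts in low nitrogen with acetate at 48 h and 0.502% ± 0.0291 in high nitrogen with acetate (mean ± SD, n = 3 in each group here and below). At 64 h the shares with acetate were 0.843% ± 0.00791 in low and 0.396% ± 0.0179 in high nitrogen, and at 88 h 0.998% ± 0.0110 and 0.410% ± 0.0222. Without acetate the shares at 48 h were 0.668% ± 0.00568 in low and 0.621% ± 0.0245 in high nitrogen. At 64 h they were 0.742% ± 0.0383 and 0.396% ± 0.0153, and at 88 h 0.861% ± 0.0199 and 0.437% ± 0.0310. The shares at 48 and 88 h come from libraries that chose the genes and are a description. At 64 h the share was higher in all 3 low-nitrogen than in all 3 high-nitrogen libraries, with acetate and without it. As all values are shares of a library, a change in the RNA content or number of cells cannot be told apart from one in the other RNAs.

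The 64 h libraries played no part in the choice of the genes beyond the scaling, so the nitrogen effect was tested there. If the 3 times are samples of the same flasks, the test shares cultures with the choice of the genes. With acetate 106 of the 109 late-rising genes were higher in low than in high nitrogen and none was lower (edgeR's quasi-likelihood test on all tested genes, Benjamini-Hochberg adjusted p below 0.05). Of all 8314 tested genes 39.0% were called higher and 37.0% lower. Without acetate 96 of the 109 were called higher and none lower, against 35.4% higher and 38.4% lower among all tested genes. The median log2 fold change of the 109 genes was 1.48 with acetate and 1.05 without it, and over all tested genes it was 0.02 and -0.03. At least 2-fold and called higher were 87 genes with acetate, against 17.4% of all tested genes, and 62 without it, against 13.1%. All 3 low-nitrogen libraries exceeded all 3 high-nitrogen libraries for 104 genes with acetate, against 39.1% of all tested genes, and for 88 without it, against 36.4%.

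The calls at 64 h also depend on the scaling. With library totals alone 102 of the 109 were called higher with acetate, against 26.4% of all tested genes, and 73 without it, against 19.6%; 1 gene was then called lower without acetate. The median log2 fold change of the 109 was then 1.13 with acetate and 0.64 without it. The median of all tested genes moved to -0.33 with acetate and -0.43 without it under that scaling. Without the 4 libraries that stood apart 107 genes were called higher with acetate, against 41.3% of all genes tested then. Without acetate 104 were called higher, against 35.9%. With 1 library left out in turn the calls ranged from 105 to 107 with acetate and from 85 to 103 without it. The 85 came without replicate 1 of high nitrogen without acetate at 64 h, against 35.4% of all genes tested then. DESeq2 called 106 genes higher with acetate, against 38.6% of all genes, and 98 without it, against 35.7%, and none lower. At an unadjusted p below 0.05 edgeR's test called none lower either.

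**Figure D3:**
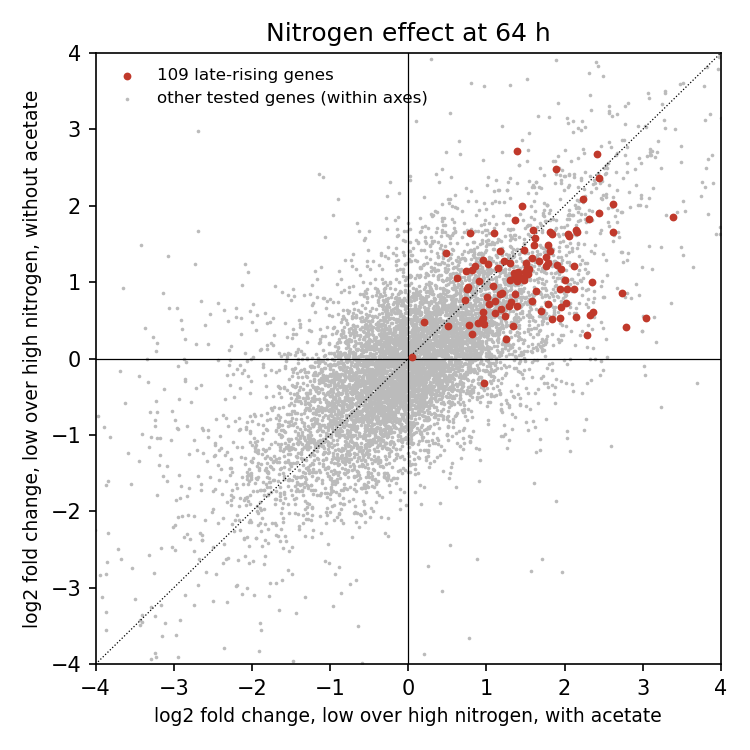
Log2 fold change of low over high nitrogen at 64 h with acetate (horizontal) and without it (vertical), for the 109 late-rising genes (red) and the other tested genes that fall within the axes (grey); the dotted line marks equal values. All but 1 of the red points are above 0 on both axes, and 86 of the 109 lie right of the line, where the value with acetate is the larger.

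Effects at 64 h are ranked here among called genes whose mean reached 10 CPM in the higher of the groups compared at 64 h and whose libraries did not overlap between those groups. Over all 109 genes, those with lower counts included, the fitted values reached further, up to 3.39 for nitrogen with acetate and 2.72 without it. Within these limits the largest nitrogen effects with acetate were those of mRNA_4089 and mRNA_6126. mRNA_4089 (protein 12457, scaffold 2, 1330742 to 1332035, minus strand, 3 exons) had 25.4, 25.3 and 30.0 CPM at 64 h in low nitrogen with acetate, against 4.34, 4.69 and 6.36 CPM in high nitrogen. The groups were far apart, and the log2 fold change was 2.45 (SE 0.17, adjusted p = 9.2e-14). At 88 h its means with acetate were 24.4 ± 1.83 CPM in low and 7.07 ± 1.04 in high nitrogen, so its level in low nitrogen was already reached at 64 h. mRNA_6126 (protein 14494, scaffold 6, 64875 to 66061, plus strand, a single exon) had 12.6, 13.8 and 11.8 CPM at 64 h in low nitrogen with acetate, against 2.26, 2.91 and 2.27 CPM in high nitrogen. Its log2 fold change was 2.41 (SE 0.22, adjusted p = 8.29e-11). This gene peaked at 64 h in low nitrogen, since its mean there was 5.09 ± 1.04 CPM at 48 h and 7.42 ± 0.522 CPM at 88 h.

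Without acetate the largest nitrogen effects within the same limits at 64 h were those of mRNA_3026 and mRNA_5383. mRNA_3026 (protein 11394, scaffold 16, 128270 to 129253, plus strand, 2 exons) had 9.99, 12.4 and 13.2 CPM at 64 h in low nitrogen without acetate, against 1.84, 1.9 and 2.43 CPM in high nitrogen. Its log2 fold change was 2.48 (SE 0.22, adjusted p = 2.88e-11). The gap was wider at 64 than at 88 h, when the means of mRNA_3026 were 11.0 ± 1.21 CPM in low and 4.87 ± 1.39 in high nitrogen. mRNA_5383 (protein 13751, scaffold 4, 612783 to 613674, plus strand, 5 exons) had 26.0, 31.8 and 31.5 CPM at 64 h in low nitrogen without acetate, against 7.46, 5.80 and 7.19 CPM in high nitrogen. Its log2 fold change was 2.09 (SE 0.13, adjusted p = 2.82e-14), and with acetate it was 2.24 (SE 0.14, adjusted p = 1.33e-14). In high nitrogen without acetate the mean of mRNA_5383 was 6.82 ± 0.892 CPM at 64 h and 12.7 ± 1.82 CPM at 48 h.

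By the ratio of CPM plus 1, 40 of the 109 genes had already reached 2 at 64 h both with and without acetate, against 7.12% of all tested genes. Another 32 had reached it only with acetate, against 6.35%, 12 only without it, against 4.62%, and 25 in neither. The fitted log2 fold changes with and without acetate went together loosely across the 109 genes, with Pearson's r of 0.35 and Spearman's rho of 0.32. These points share library scaling, and genes are not independent replicates. The log2 fold change at 64 h correlated across the 109 genes with the log2 ratio at 88 h by Pearson's r of 0.41 with acetate and 0.32 without it. The 88 h ratio chose the genes and was cut at 2 by the rule, so these correlations are a description only.

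In total 96 of the 109 genes were called higher in low nitrogen at 64 h both with and without acetate, against 25.1% of all tested genes. The other 13 were all among those not called without acetate, and 10 of them were called higher with it. The widest split was that of mRNA_4825 (protein 13193, scaffold 3, 1097329 to 1098897, plus strand, 3 exons). It had 6.08, 9.74 and 12.6 CPM at 64 h in low nitrogen with acetate, against 1.04, 0.970 and 1.69 CPM in high nitrogen, and the log2 fold change was 3.04 (SE 0.30, adjusted p = 2.9e-10). Without acetate it had 8.68, 6.61 and 7.49 CPM in low nitrogen, against 4.15, 6.91 and 4.47 CPM in high nitrogen. These groups overlapped through replicate 2 of high nitrogen, and the log2 fold change of 0.53 (SE 0.25) had an adjusted p of 0.0577. Called in neither were mRNA_2144, mRNA_2504 and mRNA_6533, named here because they are few. The log2 fold change of mRNA_6533 was 0.04 (SE 0.20) with acetate and 0.02 (SE 0.20) without it, although its ratio at 88 h was at least 2 by the rule. That of mRNA_2504 was 0.20 (SE 0.37) and 0.48 (SE 0.33), and that of mRNA_2144 was 0.51 (SE 0.25) and 0.43 (SE 0.23).

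The second question at 64 h was what acetate changed in these genes. In low nitrogen 18 of the 109 genes were called higher with acetate than without it and 9 lower, against 23.0% and 18.8% of all tested genes. The median log2 fold change was 0.02, against 0.00 over all tested genes. In high nitrogen 12 of the 109 were called higher with acetate and 53 lower, against 30.4% and 36.5% of all tested genes, and the median was -0.38, against -0.07. The count in high nitrogen depended on 1 library. Without replicate 2 of high nitrogen without acetate, which stood apart, 36 of the 109 were called lower, against 29.8% of all genes tested then, and the median was -0.22. The count in low nitrogen is not stable either. Of the libraries without acetate, leaving out replicate 1 gave 6 higher, against 18.4% of all genes tested then. Leaving out replicate 3 gave 8, against 16.8%. Of those with acetate, leaving out replicate 2 gave 7, against 18.2%, and leaving out replicate 3 gave 10, against 19.9%. Without replicate 3 of low nitrogen with acetate 17 were called lower, against 22.7%, and the median was -0.08. With library totals alone acetate was called to raise 5 and lower 23 in low nitrogen, against 13.4% and 35.4% of all tested genes. In high nitrogen it was then called to raise 6 and lower 67, against 20.0% and 51.6%.

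**Figure D4:**
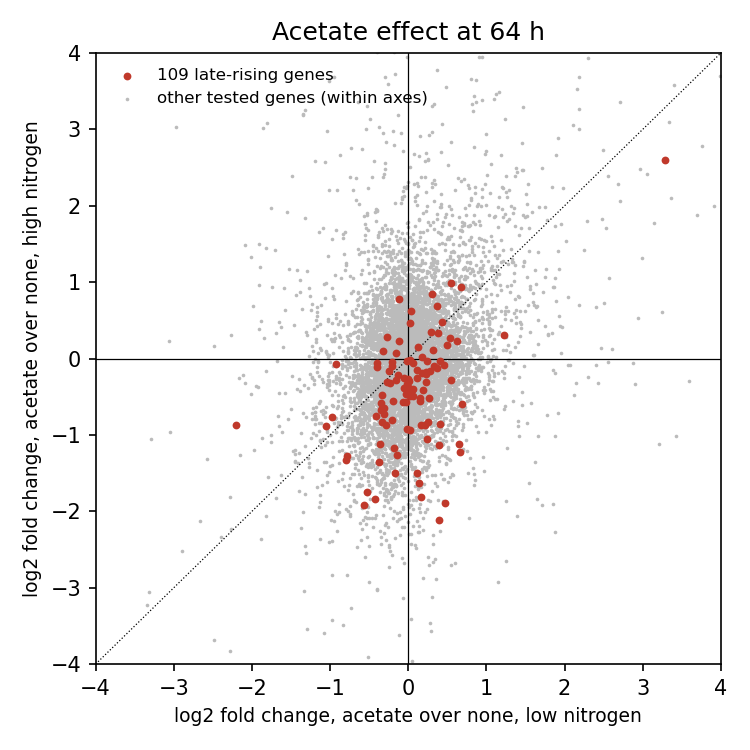
Log2 fold change of acetate over none at 64 h in low nitrogen (horizontal) and in high nitrogen (vertical), for the 109 late-rising genes (red) and the other tested genes that fall within the axes (grey); the dotted line marks equal values. The red points spread mostly along the vertical axis, with a median of 0.02 in low and -0.38 in high nitrogen; the point at the upper right is mRNA_1570.

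The gene raised most by acetate in both nitrogen media was mRNA_1570 (protein 9938, scaffold 11, 617747 to 619889, minus strand, 10 exons). In low nitrogen at 64 h it had 320.3, 248 and 254 CPM with acetate, against 33.2, 24.1 and 28.8 CPM without it, and the log2 fold change was 3.29 (SE 0.26, adjusted p = 4.46e-11). In high nitrogen it had 111, 127 and 119.9 CPM with acetate, against 18.6, 20.1 and 18.8 CPM without it, and the log2 fold change was 2.60 (SE 0.26, adjusted p = 9.17e-10). With acetate its means in high nitrogen were 271 ± 68.2, 119.5 ± 7.89 and 48.1 ± 2.10 CPM at 48, 64 and 88 h. In low nitrogen with acetate the means were 222 ± 60.2, 274 ± 40.1 and 272 ± 21.7 CPM, so with acetate its late ratio went with the drop in high nitrogen. Also higher with acetate in low nitrogen was mRNA_4948 (protein 13316, scaffold 3, 1381700 to 1382968, minus strand, 5 exons), with 2244, 2139 and 1853 CPM with acetate at 64 h, against 817, 997 and 916 CPM without it (log2 fold change 1.23, SE 0.20, adjusted p = 1e-05). mRNA_4948 overlaps a gene on the opposite strand, and the strand setting of the counting is not stated, so its counts are uncertain.

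Among the genes that reached 10 CPM in a compared group at 64 h without overlap, acetate lowered mRNA_2415 and mRNA_3246 most in low nitrogen. Over all 109 genes the lowest acetate effect there was -2.21, in a gene below that level. mRNA_2415 (protein 10783, scaffold 14, 70099 to 71162, minus strand, 7 exons) had 59.8, 75.4 and 81.8 CPM with acetate in low nitrogen at 64 h, against 133, 159.6 and 169 CPM without it (log2 fold change -1.05, SE 0.11, adjusted p = 5.35e-09). In high nitrogen at 64 h it was also lower with acetate, with a value of -0.88 (SE 0.11, adjusted p = 3.94e-08). At 88 h its levels with and without acetate were close, at 165 ± 5.4 and 174 ± 4.46 CPM in low nitrogen. mRNA_3246 (protein 11614, scaffold 17, 205319 to 207442, minus strand, 10 exons) had 23.4, 28.5 and 31.3 CPM with acetate in low nitrogen at 64 h, against 54.4, 55 and 59.6 CPM without it (log2 fold change -0.98, SE 0.15, adjusted p = 3.82e-06).

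In high nitrogen the genes that acetate lowered most within the same limits were mRNA_5046 and mRNA_4245. Over all 109 genes the lowest acetate effect there was -2.12, that of mRNA_4825, whose means at 64 h were under 10 CPM. mRNA_5046 (protein 13414, scaffold 3, 1630371 to 1631224, plus strand, 2 exons) had 4.18, 4.64 and 6.17 CPM with acetate in high nitrogen at 64 h, against 9.04, 24.2 and 11.7 CPM without it. The highest of these was replicate 2, the library that stood apart. The acetate effect was -1.62 on the log2 scale (SE 0.23, adjusted p = 6.02e-07), or -1.07 without that library. mRNA_4245 (protein 12613, scaffold 2, 1701205 to 1702275, plus strand, a single exon) had 2.94, 3.99 and 4.34 CPM with acetate in high nitrogen at 64 h, against 8.24, 13.5 and 8.82 CPM without it. Its log2 fold change was -1.49 (SE 0.20, adjusted p = 2.47e-07), or -1.21 without replicate 2 of high nitrogen without acetate. The gene raised most there after mRNA_1570 was mRNA_1204 (protein 9572, scaffold 10, 644301 to 645755, minus strand, 5 exons), with 654, 801 and 734 CPM with acetate, against 435, 232 and 405 CPM without it. Its log2 fold change was 0.99 (SE 0.14, adjusted p = 6.35e-07), or 0.80 without that replicate 2.

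Whether acetate acted differently in low than in high nitrogen at 64 h was tested as an interaction, the acetate effect in low minus that in high nitrogen. It was called positive for 34 of the 109 genes, against 31.9% of all tested genes, and negative for 6, against 24.1%. The share of positive calls was thus near that of all genes, while the median was 0.40, against 0.10 over all tested genes. Without replicate 2 of high nitrogen without acetate at 64 h the positive calls numbered 22, against 24.1% of all genes tested then. They also numbered 22 without replicate 1 of high nitrogen with acetate at 64 h, against 24.3%. The negative calls numbered between 6 and 12 when libraries were left out in turn. The shares over all genes moved too, to 25.4% positive and 26.2% negative in a fit of the 64 h groups alone. Without replicate 1 of low nitrogen without acetate at 48 h they were 26.6% and 27.8%.

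The largest interaction was 2.51, that of mRNA_4825, whose means at 64 h were under 10 CPM. Among genes whose mean reached 10 CPM in any of the 4 groups at 64 h, the largest were those of mRNA_5046 at 1.76 (SE 0.32, adjusted p = 3.32e-05) and of mRNA_5286 at 1.61 (SE 0.32, adjusted p = 0.000128). mRNA_5286 (protein 13654, scaffold 4, 359730 to 361303, minus strand, 6 exons) had 12.3, 15.6 and 18.6 CPM with acetate and 14.1, 16.3 and 14.1 CPM without it in low nitrogen at 64 h. In high nitrogen it had 3.34, 3.13 and 4.43 CPM with acetate and 7.24, 14.2 and 8.65 CPM without it, the highest again in replicate 2. The level in low nitrogen overlapped with and without acetate, while in high nitrogen it did not overlap. Without replicate 2 of high nitrogen without acetate the interaction was 1.17 for mRNA_5046 and 1.20 for mRNA_5286.

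Over all 109 genes the lowest interaction was -1.33, in a gene under 10 CPM in each group at 64 h. Among the genes that reached 10 CPM the lowest were those of mRNA_1890 and mRNA_8078, both of which overlap other genes, so their counts are uncertain. mRNA_1890 (protein 10258, scaffold 12, 442146 to 442933, plus strand, a single exon) had 70.9, 73.6 and 84.7 CPM with acetate and 72.8, 89.8 and 93.1 CPM without it in low nitrogen at 64 h. In high nitrogen it had 57.9, 53.4 and 57.0 CPM with acetate and 34.9, 23.6 and 37.0 CPM without it. The libraries with and without acetate overlapped in low nitrogen and were apart in high nitrogen, and the interaction was -0.90 (SE 0.17, adjusted p = 7.31e-05). mRNA_8078 (protein 16446, scaffold 9, 371033 to 372406, plus strand, 7 exons) had 54.6, 82.4 and 88.5 CPM with acetate and 137, 149 and 155 CPM without it in low nitrogen. In high nitrogen it had 47.8, 38.1 and 49.0 CPM with acetate and 52.2, 32.3 and 53.5 CPM without it, and the interaction was -0.86 (SE 0.21, adjusted p = 0.00108).

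At the other times the effect of acetate is described without a test, since those libraries chose the genes. At 48 h 44 of the 109 genes were at least 1.5-fold lower with acetate than without it in low nitrogen, against 12.4% of all tested genes, and 48 in high nitrogen, against 19.6%. At 64 h the numbers were 6 in low nitrogen, against 6.92%, and 24 in high nitrogen, against 16.8%. At 88 h they were 35 in low nitrogen, against 9.19%, and 53 in high nitrogen, against 24.5%. The genes that were at least 1.5-fold higher with acetate numbered between 3 and 8 of the 109 in these 6 pairs of groups. Over all 8314 tested genes the numbers lay between 718 (low nitrogen, 64 h) and 1872 (high nitrogen, 88 h).

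**Figure D5:**
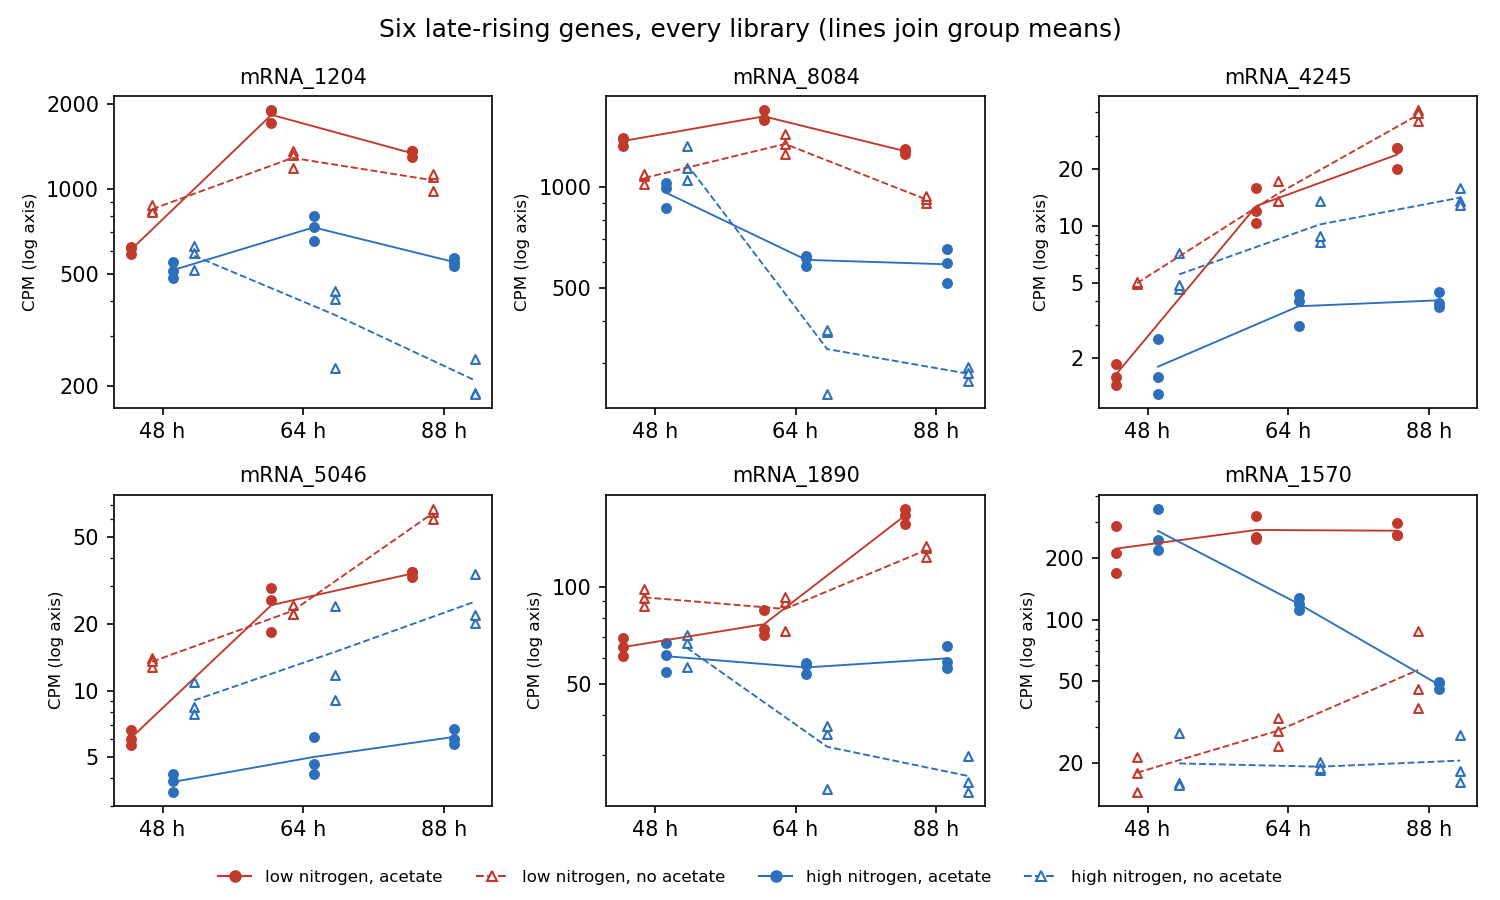
CPM of 6 late-rising genes in every library (points) at 48, 64 and 88 h on a log axis, with lines through the group means. In mRNA_4245 and mRNA_5046 the low-nitrogen means climb by more than the high-nitrogen means, in mRNA_8084 and in mRNA_1204 without acetate the high-nitrogen mean drops, in mRNA_1890 without acetate the low-nitrogen mean ends higher and the high-nitrogen mean lower than it began, and mRNA_1570 stands far higher with acetate than without it at 48 and 64 h.

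The levels of the late-rising genes spanned a wide range. The mean over all libraries lay between 0.866 and 963 CPM, with a median of 12.4 CPM, against 49.6 CPM over all tested genes. Of the 109 genes 26 were under 5 CPM, against 10.2% of all tested genes, and 14 were over 100 CPM, against 27.4%. Per kilobase of exon the highest in low nitrogen at 88 h were mRNA_4948 with 1604, mRNA_1204 with 1152 and mRNA_8084 with 807.5 CPM per kb, which ranked 104, 142 and 190 among all annotated genes.

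The most abundant gene by CPM in low nitrogen at 88 h, mRNA_1204, had 1360, 1291 and 1358 CPM with acetate at that time, against 567, 531 and 551 CPM in high nitrogen with acetate. Without acetate it had 1102, 1129 and 983 CPM in low nitrogen, against 189, 249.9 and 188 CPM in high nitrogen. The groups did not overlap in either pair, but the 88 h libraries were among those that chose the gene. Its mean in high nitrogen without acetate was 579 ± 57.4 CPM at 48 h, 357 ± 110 CPM at 64 h and 209 ± 35.4 CPM at 88 h. mRNA_8084 (protein 16452, scaffold 9, 381389 to 383609, minus strand), with 13 exons the gene with the most exons, was likewise lower late in high nitrogen. Without acetate its means there were 1174 ± 141, 329.5 ± 74.9 and 278.5 ± 13.8 CPM at 48, 64 and 88 h. In low nitrogen without acetate its means were 1066 ± 35.5, 1346 ± 92.4 and 921 ± 23.1 CPM, so its level at 88 h was not above that at 48 h. At 64 h the nitrogen effect on mRNA_8084 was 1.46 (SE 0.12, adjusted p = 4.54e-12) with acetate and 2.00 (SE 0.12, adjusted p = 7.77e-15) without it.

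Changes from 48 to 88 h are ranked here as folds of the group means of CPM plus 1. The smaller of the folds with and without acetate was used. Among genes whose mean reached 10 CPM in any group, the largest fold increases in low nitrogen were those of mRNA_4245 and mRNA_2513. With acetate the mean of mRNA_4245 was 1.63 ± 0.216 CPM at 48 h, 12.7 ± 2.88 CPM at 64 h and 23.8 ± 3.23 CPM at 88 h in low nitrogen, and 1.8 ± 0.642, 3.75 ± 0.729 and 4.04 ± 0.400 CPM in high nitrogen. Without acetate it was 4.97 ± 0.0581, 14.8 ± 2.15 and 38.7 ± 2.55 CPM in low nitrogen, and 5.54 ± 1.4, 10.2 ± 2.86 and 14.1 ± 1.59 CPM in high nitrogen. The means were thus higher at each later time in all 4 media, most so in low nitrogen. mRNA_2513 (protein 10881, scaffold 14, 327529 to 329128, minus strand, a single exon) had means of 1.41 ± 0.0671, 6.76 ± 1.70 and 12.9 ± 2.19 CPM in low nitrogen with acetate, and 1.81 ± 0.356, 1.36 ± 0.464 and 1.56 ± 0.181 CPM in high nitrogen. Its nitrogen effect at 64 h was 2.35 (SE 0.29, adjusted p = 2.72e-08) with acetate and 1.01 (SE 0.25, adjusted p = 0.000557) without it.

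By the same measure and limit of 10 CPM, the largest fold drops in high nitrogen were those of mRNA_5879 and mRNA_2225. mRNA_5879 (protein 14247, scaffold 5, 1149162 to 1152280, plus strand, 12 exons) had means of 103 ± 0.556, 49.4 ± 1.4 and 44.0 ± 0.810 CPM at 48, 64 and 88 h in high nitrogen with acetate. In low nitrogen with acetate the means were 96.3 ± 0.827, 163 ± 7.24 and 159.7 ± 2.81 CPM. In low nitrogen without acetate mRNA_5879 had 113 ± 8.14 CPM at 48 h and 107 ± 7.09 CPM at 88 h, and in high nitrogen without acetate 101 ± 10.9 and 51.7 ± 6.98 CPM. Without acetate its late ratio thus went with the drop in high nitrogen. mRNA_2225 (protein 10593, scaffold 13, 403671 to 405035, plus strand, 3 exons) had means with acetate of 41.0 ± 2.94 CPM in low and 43.3 ± 7.73 in high nitrogen at 48 h, and of 67.3 ± 2.43 and 25.9 ± 0.39 at 88 h.

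Replicate 2 of high nitrogen without acetate touched many of these genes. At 88 h it had the highest CPM of the 3 replicates for 86 of the 109 genes, against 51.3% of all tested genes, and at 64 h for 65, against 41.3%. At 48 h replicate 3 of the same medium was highest for 85 of the 109, against 43.0%. Without replicate 2 at 88 h the rule found 145 genes, 105 of them among the 109. Its part in the levels of high nitrogen without acetate was not tested further.

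The genes were also described by their structure, which the rule did not use. The late-rising genes had fewer exons than the catalogue as a whole, with a median of 3 against 5. Single-exon genes were 11 of the 109, or 10.1%, against 5.08% of all annotated genes, and genes with at least 10 exons were 12, or 11.0%, against 15.4%. Their coding length was like that of all genes in its median, at 1212 against 1218 bases. The longest was mRNA_5707 (protein 14075, scaffold 5, 736215 to 742330, plus strand, 8 exons) with 5358 coding bases, and its nitrogen effect at 64 h was 1.18 (SE 0.12, adjusted p = 4.52e-10) with acetate and 0.85 (SE 0.12, adjusted p = 2.06e-07) without it. The shortest was mRNA_4326 (protein 12694, scaffold 2, 1914814 to 1915500, plus strand, a single exon) with 309 coding bases. mRNA_4326 had 9.12, 8.72 and 5.60 CPM at 64 h in low nitrogen with acetate, against 0.994, 1.4 and 1.59 CPM in high nitrogen. Of the 109 genes 19, or 17.4%, overlapped another annotated gene, against 24.2% of all genes, and their counts are uncertain to that extent. No chance test was made for these structural differences.

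Some of the late-rising genes were neighbours. Of the 109, 15 stood next to another late-rising gene, or 13.8%, against 2.36% of the other annotated genes. There were 6 pairs and 1 run of 3, mRNA_4825, mRNA_4826 and mRNA_4827, which lie at 1097329 to 1102696 on scaffold 3 and do not overlap. mRNA_4826 (protein 13194, minus strand, 2 exons) had 34.9, 47.1 and 48.8 CPM at 64 h in low nitrogen with acetate, against 10.4, 12.7 and 10.7 CPM in high nitrogen. mRNA_4827 (protein 13195, plus strand, 2 exons) had 18.1, 24.2 and 29.1 CPM, against 5.44, 6.63 and 6.31 CPM. Both pairs of groups were apart, with log2 fold changes of 2.01 (SE 0.19, adjusted p = 1.4e-10) and 2.03 (SE 0.19, adjusted p = 8.99e-11). At 88 h with acetate the means of the 3 genes in order along the scaffold were 19.5 ± 2.66, 82.2 ± 5.4 and 43.4 ± 5.2 CPM in low nitrogen, and 1.95 ± 0.330, 13.4 ± 0.232 and 7.59 ± 0.360 CPM in high nitrogen.

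The mirror set, 241 genes within the same limits at 48 h and at most 0.5 at 88 h, behaved at 64 h in the opposite way. With acetate 221 of them were called lower in low nitrogen and 2 higher, against 37.0% and 39.0% of all tested genes. Without acetate 231 were called lower and 2 higher, against 38.4% and 35.4%. Acetate in high nitrogen lowered 66 of these 241, or 27.4%, and raised 71, or 29.5%. It lowered 53, or 48.6%, and raised 12, or 11.0%, of the 109 late-rising genes, against 36.5% and 30.4% of all tested genes. Another 203 genes had a low-to-high nitrogen ratio of at least 2 at both 48 and 88 h, with and without acetate. Of these 203, acetate in high nitrogen lowered 86, or 42.4%, and raised 44, or 21.7%. The differences between the sets were not tested. The median exon number of the mirror set was 6, and 2.49% of it were single-exon genes.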

How the data were processed

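Messenger RNA of 36 cultures of strain IFO0880 was sequenced from stranded libraries, per the labels' protocols. The deposited values are whole-number counts per mRNA of the gene catalogue, 1 file per library, and they were used as raw counts although the labels call them normalized to depth, since their totals differ. Tools named in the submitters' processing notes, with neither roles nor settings, are STAR 2.7.10a, Subread 2.0.4 with featureCounts, Trimmomatic 0.39, MultiQC 1.9 and FastQC 0.11.9. Exon numbers, lengths and positions were read from the deposited catalogue.

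The tests used edgeR 4.0.16 under R 4.3.3. CPM use TMM factors over all genes. One quasi-likelihood model with a mean for each group took in the 36 libraries, after edgeR's filter on low counts, and p-values were adjusted by Benjamini-Hochberg over the 8314 tested genes in each of 5 comparisons at 64 h. Genes with adjusted p below 0.05 were called, and all adjusted p are from this test. The SE is the absolute log2 fold change divided by the square root of F, which can be too small at few counts. Fitted log2 fold changes differ from ratios of CPM plus 1, which understate changes of low genes. The fit was tested on simulated counts.

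Replicates are biological, per the labels. Whether equal numbers mark a shared colony is not stated, so no block was used. Alternatives were DESeq2 1.42.0, other scalings, filters, pseudocounts and limits, a replicate block, the 64 h groups alone, and libraries left out. Named genes were chosen within the set by size of effect at 64 h (adjusted p below 0.05, group mean reaching 10 CPM in one or more of the compared 64 h groups, no overlap except for interactions), level, course, the limits of the rule, adjacency and gene structure. mRNA_2144, mRNA_2504 and mRNA_6533 were added after their values were seen. The set, the lists and the named-gene rule were chosen with earlier results of these data known. No gene names pair with the catalogue numbers, so no pathway lists were used, and no sequence was used here.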

Additional observations from a re-analysis of the deposited data

Results flagged for a closer look

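The acetate effect at 64 h differed between low and high nitrogen for 20 of the genes named in the text, by the interaction test of edgeR with adjusted p below 0.05. Positive values mean a higher acetate effect in low than in high nitrogen, on the log2 scale. The 3 adjacent genes had interactions of 2.51 for mRNA_4825 (SE 0.39, adjusted p = 6.14e-06), 0.98 for mRNA_4826 (adjusted p = 0.00206) and 1.12 for mRNA_4827 (adjusted p = 0.000535). mRNA_4825 had a mean under 10 CPM in each group at 64 h. At the ends of the stretches given under the other observations, mRNA_8018 had 2.37 (SE 0.47, adjusted p = 0.000122) and mRNA_5968 had 1.28, also with means under 10 CPM in each group at 64 h. There mRNA_6059 had 1.03, mRNA_4730 had 0.43 and mRNA_4834 had -0.41. mRNA_5046 had 1.76, mRNA_5286 had 1.61, mRNA_2513 had 1.34 and mRNA_4245 had 1.33. Smaller positive values were found for mRNA_4948 with 0.92, mRNA_7414 with 0.91, mRNA_6836 with 0.83, mRNA_4089 with 0.54 and mRNA_5879 with 0.44. That of mRNA_4089 was close to the threshold (adjusted p = 0.0458). Other negative values were found for mRNA_1890 with -0.90, mRNA_8078 with -0.86 and mRNA_8084 with -0.54. Replicate 2 of high nitrogen without acetate at 64 h, which stood apart, was highest of its group for mRNA_5046, mRNA_5286, mRNA_2513, mRNA_4245, mRNA_5968, mRNA_6836 and mRNA_7414. It was lowest for mRNA_4948, mRNA_5879, mRNA_1890, mRNA_8078 and mRNA_8084. Without it the interaction was 1.17 for mRNA_5046, 1.20 for mRNA_5286, -0.82 for mRNA_1890 and -0.75 for mRNA_8078. Among all tested genes 31.9% had a positive and 24.1% a negative call, so single calls do not set these genes apart.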

How the results depend on the processing

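The median nitrogen effect on the genes at 64 h was positive in all settings run, with acetate and without it. With library totals alone, the rule found 26 genes, 1 gene was called lower in low nitrogen without acetate, and the median nitrogen effect was 1.13 with and 0.64 without acetate. For acetate in low nitrogen 5 were then higher and 23 lower, against 13.4% and 35.4% of all tested genes, with a median of -0.16. In high nitrogen 6 were higher, against 20.0%. For the 26 genes chosen on that scale, 24 were higher in low nitrogen with acetate, against 26.4% of all tested genes. Without acetate 18 of the 26 were higher and 1 lower, against 19.6% and 56.5%. Acetate raised 5 of them in low nitrogen, against 13.4% of all tested genes, raised 3 and lowered 14 in high nitrogen, against 20.0% and 51.6%, and 10 had a positive interaction, against 34.3%; the smaller set bounds these counts. Narrower limits at 48 h left 40 genes and a ratio of 3 at 88 h left 15. With a pseudocount of 5 the genes up in high nitrogen from 48 to 88 h were 2 with and 8 without acetate, and those down were 9 with acetate. Without a filter 10 negative interactions were called, against 26.5% of all genes tested then. A fit of the 64 h groups alone called 10 genes higher with acetate in low nitrogen, against 18.8%. Leaving out the 4 libraries that stood apart gave 19 lower there, against 23.1%, and the cause was not tested.

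Over the 36 fits that left out 1 library, the genes higher with acetate in low nitrogen ranged from 6 to 18 and those lower from 6 to 17, with a median of -0.085 to 0.048. Fits without single libraries of other media or times also moved that lower count, to between 14 and 16. Over all genes tested the shares in the 36 fits ranged from 15.9% to 23.5% for higher and from 17.0% to 25.2% for lower. Positive interactions ranged from 22 to 38 and negative ones from 6 to 12, with negative ones over 1.5 times 6 in 26 of the 36 fits. Over all genes tested the shares ranged from 24.1% to 32.5% for positive and from 23.5% to 29.2% for negative calls. The genes 1.5-fold up in high nitrogen with acetate ranged from 8 to 14, the 14 without replicate 1 of that medium at 48 h. The member count ranged from 95 to 145. The cause of these moves was not tested.

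With a replicate block 106 genes were called higher in low nitrogen at 64 h with acetate, against 38.9% of all tested genes. Without acetate 98 were called higher, against 35.4%, so the block moved no count of calls by over 1.5 times. Same-numbered libraries deviated together with correlations between -0.085 and 0.241, not above 0.1 in every pair, so the numbers were not taken as a pairing. Depth limits the low genes: 26 of the 109 averaged under 5 CPM.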

Other observations

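Stretches of 3 scaffolds, chosen after the positions were seen and not tested, held many of the late-rising genes. On scaffold 5 a stretch of 195 kb, from mRNA_5968 to mRNA_6059 at 1349496 to 1544992, held 12 of them among 92 annotated genes, or 13.0%, against 1.28% of all annotated genes. On scaffold 3 a stretch of 239 kb, from mRNA_4730 to mRNA_4834 at 874109 to 1113278, held 11 among 105 genes, or 10.5%, the run of 3 included. On scaffold 9 a stretch of 204 kb, from mRNA_8018 to mRNA_8104 at 220010 to 424507, held 6 among 87 genes. The other tested genes of the scaffold 5 stretch had a median nitrogen effect at 64 h of 0.39 with acetate and 0.12 without it, those of the scaffold 3 stretch 0.31 and 0.19, and those of the scaffold 9 stretch -0.14 and -0.19, on the log2 scale. Of the 75 others on scaffold 5, 40 were called higher in low nitrogen with acetate and 35 without it, and of the 92 others on scaffold 3 the numbers were 48 and 42. Of the 80 others on scaffold 9 the numbers were 23 and 26. Over all tested genes 39.0% were called higher with acetate and 35.4% without it. Late-rising genes within 50 kb of the outermost annotated base of a scaffold numbered 3 of the 109, or 2.75%, against 9.03% of all annotated genes.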
